A study of Homo sapiens with 36 samples.

Results

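The genes described here are 42 interferon-stimulated genes with antiviral roles, taken by their listed symbols through the Entrez Gene number of each row, 42 of the 21599 rows of the deposited table. The OAS, IFIT, GBP and TRIM families were not among the members. All 42 had 1 row each, and all 42 passed the filter on low values, which kept 21232 rows.

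Interferon-stimulated genes are switched on when an interferon binds its receptor. Type I interferons such as interferon-β act through a transcription factor complex that binds an interferon-stimulated response element in the promoters of its targets. Interferon-γ acts through factors that bind a gamma-activated sequence, and lipopolysaccharide (LPS) induces interferon-β through TLR4 and IRF3. Many of these genes are also transcribed at a low level in resting cells, where small amounts of interferon keep them on.

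RNA-seq was measured in THP-1 cells, a human monocytic leukaemia line that takes on macrophage features with phorbol 12-myristate 13-acetate (PMA). All 12 groups were given 100 nM PMA for 72 h. The genotypes were IRG1 knockout (KO) and wild type (WT), where IRG1, now ACOD1, encodes the mitochondrial enzyme that makes itaconate. Each genotype received LPS (200 ng/mL) with interferon-γ (200 ng/mL), or vehicle, for 6, 12 or 24 h, with 3 libraries in each group and 36 in all. The labels do not say whether the knockout is a single clone or whether replicates were separate cultures, so a p-value here reflects how these libraries vary and nothing wider, and the spread may be technical. The submitters' title places the study's interest in itaconate as a regulator of cytokine production and ubiquitination. Values below are on the authors' log2 scale unless another unit is given, and the vehicle level of each genotype is called basal.

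ACOD1 itself read 8.35, 8.31 and 8.80 in stimulated KO libraries at 6 h, against 12.76, 11.49 and 11.11 in stimulated WT libraries. At 12 h it read 7.98, 10.22 and 8.49 in KO, against 11.97, 11.80 and 11.00 in WT, and at 24 h 8.31, 9.78 and 8.60 in KO, against 10.95, 10.96 and 9.20 in WT. With vehicle it lay between 0.00 and 0.33 in KO libraries and between 0.12 and 0.86 in WT libraries. The transcript was thus still present in stimulated KO cells, lower than in WT at 6 h (limma adjusted p = 3.74e-05) and 12 h (limma adjusted p = 0.00087) and not called at 24 h, where the groups overlapped (limma adjusted p = 0.0597). The table does not show which part of the gene was altered.

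Of 12 macrophage and monocyte markers, all were in the table, and in basal KO cells 5 were called lower than in WT at each time. All-row shares were 3.91%, 2.34% and 1.75% at 6, 12 and 24 h. None was called higher (all rows 4.28%, 2.9% and 2.23%). ITGAM had differences of 0.26, 0.72 and 0.78, with all KO libraries above all WT libraries at 12 h and 24 h. FCER1G and CD33 lay between -0.12 and 0.26. CD163, a scavenger receptor of macrophages, averaged 3.85, 3.91 and 4.12 in basal KO cells at 6, 12 and 24 h, against 9.22, 9.49 and 9.43 in basal WT cells. The summed linear values of the 12 markers lay between 7111.5 and 13068.9 in basal KO libraries and between 16403.4 and 41086.4 in basal WT libraries. A mean under 3.32, the log2 of 10, was found in basal cells for 0, 1 and 1 of the 12 in KO at 6, 12 and 24 h, and for none in WT. In stimulated KO cells 4, 3 and 2 of the 12 were called lower, against 3.86%, 1.68% and 2.46% of all rows. Of 18 listed markers of T cells, B cells, epithelium, fibroblasts, endothelium and erythroid cells, 11 were in the table. The lowest group means of CD2, CD3D, HBA1 and CDH5 lay between 0.000 and 0.008, and their highest group means were 2.81, 3.37, 3.96 and 3.70. Other markers read higher. PECAM1 averaged between 6.13 and 8.92 over the 12 groups, and the highest group means of COL1A1 and PDGFRA were 7.81 and 6.30. The summed values of the 11 lay between 245.2 and 321.1 in basal KO libraries and between 328.3 and 709.4 in basal WT libraries. In basal KO cells CD2 at 12 h and VWF at 6 h were called lower and PDGFRA at 24 h higher, and in stimulated KO cells COL1A1 was called lower at every time and CD79A higher at 6 h. The part of these markers in the results below was not tested. In RNA from whole cultures, fewer cells of a kind and less RNA per cell cannot be told apart.

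Libraries of a group correlated at r between 0.8306 and 0.9707 over all rows, and no 2 libraries held identical values. The lowest correlations, 0.8306 and 0.8551, belonged to library 2 of stimulated KO cells at 6 h, whose median over the 42 members was 9.04, against 10.05 and 10.10 in the other libraries of that group. Library 3 of stimulated WT cells at 24 h followed, at 0.8872 and 0.8598. Among vehicle libraries, number 2 was the highest of its group for 35 of the 42 members in KO and 36 in WT at 12 h, and for 36 in KO and 35 in WT at 24 h. Over all rows that library was the highest for 39.7% in KO and 35.8% in WT at 12 h, and for 38.7% in KO and 32.8% in WT at 24 h. Results are therefore also given below without these libraries.

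RefSeq promoter windows, 250 bases before and 50 after the gene's start on GRCh38.p14, were at hand for 36 of the 42 members, and DHX58, UBA7, MX2, PARP10, SIGLEC1 and LAMP3 are named only. In 32 of the 36 that start is the outermost of the RefSeq gene, and in XAF1, ISG20, IFI27 and DDX60 it is a start further inside the gene. The core of the interferon-stimulated response element, searched as GAAANNGAAA on both strands, occurred in 22 of the 36 windows (61.1%), against 3.65% of all 27305 promoter windows. The core of the gamma-activated sequence, searched as TTCNNNGAA, occurred in 9 of the 36 (25.0%), against 7.88% of all windows, and 24 of the 36 held at least 1 of the 2 cores. The windows printed here are those of the member with the largest basal difference between genotypes (IFI44L), of a second member lower in basal KO cells at every time (EPSTI1), of the ubiquitin-like modifier ISG15, of a member with matches whose basal KO and WT levels lay close together (RTP4), of a strongly induced member without a match (RSAD2), of the effector that was not induced (SAMHD1), and of the neighbours PARP9 and DTX3L. Capitals mark the core GAAANNGAAA, all 5′ to 3′ on the gene's strand. The windows are IFI44L at chr1:78620198-78620497 (plus strand), EPSTI1 at chr13:42992192-42992491 (minus), ISG15 at chr1:1013247-1013546 (plus), RTP4 at chr3:187368135-187368434 (plus), RSAD2 at chr2:6865635-6865934 (plus), SAMHD1 at chr20:36951659-36951958 (minus), PARP9 at chr3:122564735-122565034 (minus) and DTX3L at chr3:122564088-122564387 (plus).
IFI44L: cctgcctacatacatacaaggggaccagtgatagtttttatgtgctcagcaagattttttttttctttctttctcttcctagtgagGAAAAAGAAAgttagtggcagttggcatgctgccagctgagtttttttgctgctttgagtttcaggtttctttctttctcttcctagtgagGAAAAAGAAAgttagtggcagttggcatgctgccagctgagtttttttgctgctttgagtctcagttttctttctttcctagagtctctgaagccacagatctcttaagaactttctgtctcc
EPSTI1: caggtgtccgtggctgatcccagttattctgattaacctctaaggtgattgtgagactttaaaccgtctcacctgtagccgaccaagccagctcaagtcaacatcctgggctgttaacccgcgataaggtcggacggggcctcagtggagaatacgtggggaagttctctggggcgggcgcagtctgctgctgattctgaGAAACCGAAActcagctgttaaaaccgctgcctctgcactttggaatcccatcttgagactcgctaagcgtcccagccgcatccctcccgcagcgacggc
ISG15: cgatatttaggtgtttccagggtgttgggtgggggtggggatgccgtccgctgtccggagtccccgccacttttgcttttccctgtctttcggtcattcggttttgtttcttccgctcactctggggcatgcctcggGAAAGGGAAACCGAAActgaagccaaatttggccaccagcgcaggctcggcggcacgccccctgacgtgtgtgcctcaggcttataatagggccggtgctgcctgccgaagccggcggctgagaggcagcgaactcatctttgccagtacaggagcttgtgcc
RTP4: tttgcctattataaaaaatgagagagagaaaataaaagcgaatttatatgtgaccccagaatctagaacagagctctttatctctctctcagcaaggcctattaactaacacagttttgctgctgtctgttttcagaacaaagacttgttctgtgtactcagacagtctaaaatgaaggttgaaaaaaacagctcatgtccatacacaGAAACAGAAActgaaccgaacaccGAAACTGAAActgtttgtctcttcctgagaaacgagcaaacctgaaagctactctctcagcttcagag
RSAD2: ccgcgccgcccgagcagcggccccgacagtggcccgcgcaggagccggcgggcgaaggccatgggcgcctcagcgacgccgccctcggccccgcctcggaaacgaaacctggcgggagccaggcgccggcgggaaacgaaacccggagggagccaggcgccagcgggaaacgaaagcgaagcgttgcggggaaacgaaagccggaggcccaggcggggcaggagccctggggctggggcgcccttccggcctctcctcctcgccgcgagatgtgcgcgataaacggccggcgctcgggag
SAMHD1: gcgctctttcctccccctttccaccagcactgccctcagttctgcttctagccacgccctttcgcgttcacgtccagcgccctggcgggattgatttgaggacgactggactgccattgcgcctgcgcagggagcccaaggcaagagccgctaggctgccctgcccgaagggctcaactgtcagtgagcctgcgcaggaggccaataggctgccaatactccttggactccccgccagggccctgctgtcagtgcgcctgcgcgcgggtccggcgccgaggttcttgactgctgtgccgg
PARP9: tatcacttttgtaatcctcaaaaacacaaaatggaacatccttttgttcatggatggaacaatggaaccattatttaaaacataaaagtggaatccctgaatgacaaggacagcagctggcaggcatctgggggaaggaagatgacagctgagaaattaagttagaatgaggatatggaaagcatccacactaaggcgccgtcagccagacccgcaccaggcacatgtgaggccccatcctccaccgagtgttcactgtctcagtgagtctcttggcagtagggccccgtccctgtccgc
DTX3L: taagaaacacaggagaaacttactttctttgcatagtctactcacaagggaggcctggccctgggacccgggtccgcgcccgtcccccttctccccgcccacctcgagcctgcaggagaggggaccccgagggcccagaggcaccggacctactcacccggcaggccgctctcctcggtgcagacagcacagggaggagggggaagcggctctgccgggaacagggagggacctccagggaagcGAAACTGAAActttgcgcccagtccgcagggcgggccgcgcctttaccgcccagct

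The IFI44L window holds a stretch of 85 bases in a pair of copies spaced by 91 bases, so that its core GAAAAAGAAA stands 164 and 73 bases before the start. In ISG15 a pair of overlapping cores begins 113 and 107 bases before the start, and in RTP4 the cores begin 42 and 18 bases before it. EPSTI1 has 1 core, 50 bases before the start, which overlaps its match to the gamma-activated core. RSAD2, SAMHD1 and PARP9 have no match in the window, and DTX3L, on the opposite strand from PARP9, has 1 at 6 bases before its start. The RSAD2 window lies within the span of CMPK2, and the PARP9 window within that of DTX3L. Only 1 window of each gene was searched, so a core at another start would be missed. A match is a description of letters, not a shown binding site. The 22 members with a core and the 14 without had median mean changes with stimulation of 3.74 and 3.82 in KO and of 3.04 and 3.10 in WT. Their median basal differences between KO and WT, averaged over the 3 times, were -0.95 with a core and -0.86 without. The ranges were wider apart, from -3.59 for IFI44L to 0.24 with a core and from -1.57 for PARP9 to -0.01 without.

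Basal levels were lower in KO than in WT for most members. The median over the 42 was 5.49 in basal KO cells and 6.90 in basal WT cells at 6 h, 5.97 in KO and 7.15 in WT at 12 h, and 5.57 in KO and 6.93 in WT at 24 h. At 6 h 10 of the 42 members were called lower in KO (limma adjusted p below 0.05), against 3.91% of all rows. At 12 h 7 were called lower, against 2.34% of all rows, and at 24 h 11, against 1.75%. None was called higher at any time (all rows 4.28%, 2.9% and 2.23%), where an unadjusted p under 0.05 gave 1, 1 and 0 members higher and 23, 22 and 21 lower, and library weights 3, 1 and 0 higher and 26, 17 and 19 lower. Median differences were -1.01, -0.78 and -0.84 at 6, 12 and 24 h, against -0.05, -0.02 and -0.02 over all rows.

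The median basal difference was negative at every time, also without the libraries numbered 2. All 3 KO libraries lay below all 3 WT libraries for 17, 7 and 16 members at 6, 12 and 24 h, where 13.1%, 13.1% and 12.2% of all rows did so. At 12 h that count of members was close to the share of all rows. All 3 lay above for 1, 0 and 1 members, against 12.5%, 12.2% and 10.9% of all rows. Without the libraries numbered 2, an alternative added after the data were seen, 17, 14 and 17 members were called lower and the median differences were -0.97, -0.90 and -0.80. Leaving out 1 library moved the counts to between 5 and 14 at 6 h, and to between 1 and 14 at 12 h and at 24 h. At 6 h the lowest count came without WT library 2, WT library 3 or KO library 3, and at 12 h and 24 h without KO library 1. The highest came without WT library 1 at 6 h, without KO library 2 at 12 h and without KO library 2 at 24 h. With the replicate number as a block, which pairs the libraries at 12 h, 12 members were called lower there in place of 7. Of the 28 basal calls over the 3 times, 7 stood whichever library was left out, namely PLSCR1 at every time and EPSTI1, HERC5, MX2 and SIGLEC1 at 6 h. Fitted on the 6 libraries compared alone, 2, 0 and 0 were called.

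**Figure D1:**
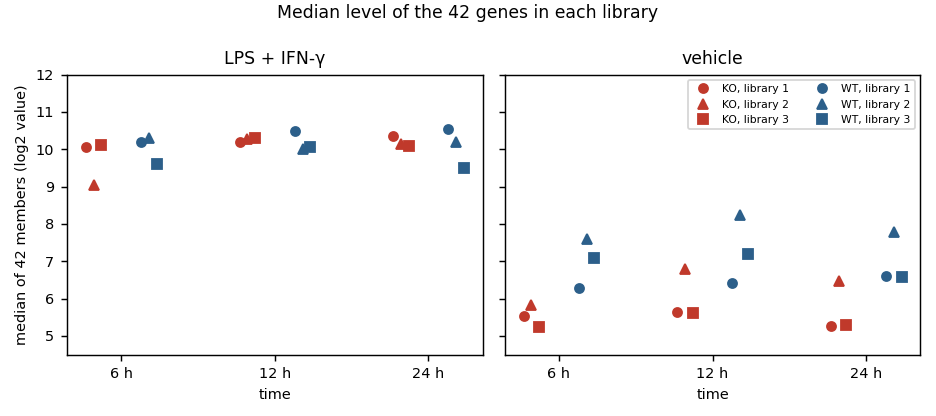
Median log2 value over the 42 members (vertical axis) in each of the 36 libraries by time (horizontal axis), for LPS with interferon-γ (left) and vehicle (right), KO in red left of WT in blue, with symbols for library numbers. Stimulated libraries lie between 9.04 and 10.54 in both genotypes, while vehicle medians lie between 5.25 and 6.80 in KO and between 6.28 and 8.23 in WT.

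IFI44L and its neighbour IFI44, interferon-induced proteins of little-known biochemical function, belonged to the members with the widest basal gaps. IFI44L read 3.43, 4.73 and 2.94 in basal KO libraries at 6 h, against 5.08, 8.37 and 7.77 in basal WT libraries, with no overlap. At 12 h it read 2.33, 6.51 and 3.93 in KO, against 5.02, 9.85 and 7.95 in WT, and at 24 h 1.28, 6.28 and 3.09 in KO, against 6.04, 9.14 and 7.63 in WT. In both of these KO library 2 stood above WT library 1, while within each library number KO was below WT. The differences were -3.38 ± 1.06 (SE, n = 3 each; limma adjusted p = 0.0443) at 6 h, -3.35 ± 1.06 at 12 h, which was not called (limma adjusted p = 0.0625), and -4.05 ± 1.06 (limma adjusted p = 0.0244) at 24 h. KO libraries at 2.94, 2.33, 1.28 and 3.09 lay under 3.32, where sizes depend on the authors' offset, which is not given. The 6 h call ended with a stricter filter and without the mean-variance trend (limma adjusted p = 0.0533 in each). Leaving out any of 4 libraries ended the 6 h call, and likewise the 24 h call. IFI44 averaged 5.03, 5.31 and 4.71 in basal KO cells and 6.82, 7.16 and 6.99 in basal WT cells at 6, 12 and 24 h, and was called lower at 24 h only (-2.29 ± 0.61, limma adjusted p = 0.0282).

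SIGLEC1, the sialic-acid-binding lectin CD169 of macrophages, fell at every time. It read 3.54, 5.31 and 3.64 in basal KO libraries at 6 h, against 6.65, 7.99 and 7.03 in basal WT libraries. At 12 h it read 2.93, 6.83 and 3.73 in KO, against 6.88, 8.52 and 7.72 in WT, and at 24 h 3.30, 6.67 and 4.56 in KO, against 8.21, 8.43 and 7.75 in WT. The groups did not overlap at any time, although KO library 2 at 12 h came within 0.1 of WT library 1. The differences were -3.06, -3.21 and -3.29 with an SE of 0.72, or 8.32-fold, 9.26-fold and 9.75-fold lower (limma adjusted p = 0.00654, 0.00615 and 0.00683). Without KO library 1 the SIGLEC1 difference was -2.43 at 12 h (limma adjusted p = 0.0953) and -2.52 at 24 h (limma adjusted p = 0.104), and without KO library 3 it was -2.83 at 12 h (limma adjusted p = 0.0520), no longer called.

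EPSTI1, a protein named for its induction in epithelial cells by stroma, read 2.87, 4.70 and 3.32 in basal KO libraries at 6 h, against 5.38, 6.35 and 6.69 in basal WT libraries. At 12 h it read 2.99, 5.35 and 3.92 in KO, against 5.44, 7.34 and 6.86 in WT, and at 24 h 2.34, 4.88 and 3.30 in KO, against 5.70, 6.70 and 6.32 in WT. All KO libraries were below all WT libraries at every time, with library 2 the highest of the KO libraries each time. EPSTI1 was 5.69-fold, 5.50-fold and 6.66-fold lower in KO at 6, 12 and 24 h (limma adjusted p = 0.00303, 0.00516 and 0.00282). XAF1, a partner of the apoptosis inhibitor XIAP, also fell at every time, with differences of -1.63, -1.44 and -1.50 (limma adjusted p = 0.0134, 0.0416 and 0.0395), the groups overlapping at 12 h.

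**Figure D2:**
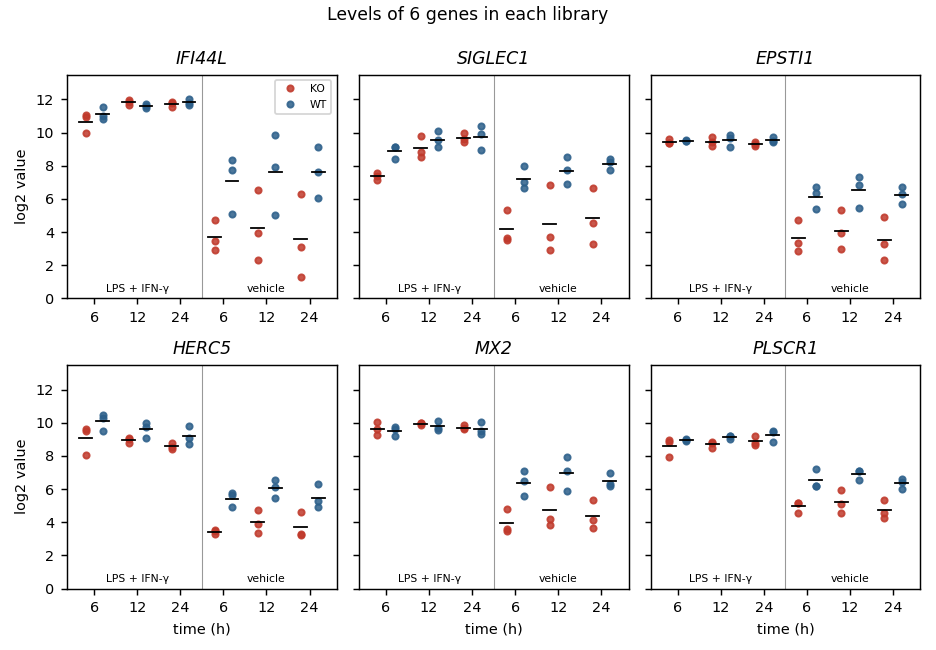
Log2 value (vertical axis) of IFI44L, SIGLEC1, EPSTI1, HERC5, MX2 and PLSCR1 in each library by time in h (horizontal axis), LPS with interferon-γ left of vehicle and KO (red) left of WT (blue). Points are libraries and black bars are means of 3. Vehicle KO libraries lie below vehicle WT libraries except in IFI44L at 12 h and 24 h and MX2 at 12 h, where they overlap, and stimulated libraries overlap except in SIGLEC1 at 6 h and PLSCR1 at 12 h.

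Among the genes of ISG15 conjugation, HERC5, the main human ligase that attaches ISG15 to proteins, was called lower in basal KO cells at every time. It read 3.28, 3.48 and 3.51 in KO libraries at 6 h, against 4.90, 5.62 and 5.77 in WT libraries, and the groups did not overlap at any time. The differences were -2.01, -2.06 and -1.79 at 6, 12 and 24 h (SE 0.44; limma adjusted p = 0.00314, 0.00359 and 0.0150). ISG15, a ubiquitin-like protein, had basal differences of -1.60, -1.75 and -2.07 that were not called (limma adjusted p = 0.158, 0.149 and 0.0860). Its libraries were spread widely, at 7.75, 9.95 and 8.89 in KO and 9.67, 11.75 and 11.37 in WT at 24 h. HERC6, an ISG15 ligase in mouse, was not called (-1.34, -1.16 and -0.83). UBA7, the activating enzyme of the pathway, had positive differences of 0.78, 0.62 and 0.43 that were not called either (limma adjusted p = 0.0515, 0.173 and 0.467), with all KO libraries above all WT libraries at 6 h and 24 h.

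Of the 9 antiviral effectors, MX2, a dynamin-like GTPase that blocks nuclear entry of HIV, was called lower in basal KO cells at every time. MX2 read 3.48, 4.79 and 3.61 in KO libraries at 6 h, against 5.60, 6.50 and 7.08 in WT libraries, 5.39-fold lower (limma adjusted p = 0.00192). It was 4.76-fold lower at 12 h, where KO library 2 at 6.12 passed WT library 1 at 5.88, and 4.21-fold lower at 24 h (limma adjusted p = 0.00545 and 0.0141). MX1, its relative that acts on influenza viruses, was called at 24 h only (-2.59 ± 0.74, limma adjusted p = 0.0426), with differences of -2.29 and -2.14 at 6 h and 12 h (limma adjusted p = 0.0524 and 0.0972). The 24 h call of MX1 ended with an offset of 5 added to the linear values (limma adjusted p = 0.0524). It also ended when any of 5 libraries was left out. The other 7 effectors were not called: RSAD2 (viperin, which makes a chain-terminating nucleotide), its neighbour CMPK2 (a mitochondrial nucleotide kinase), ISG20 (an exonuclease), BST2 (tetherin, which holds budding virions), SAMHD1 (a deoxynucleotide hydrolase), and SAMD9 and SAMD9L (restriction factors of poxviruses). Their differences lay between -1.71, for SAMD9L at 6 h, and -0.10, for SAMHD1 at 24 h.

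Among the 4 RNA-sensing helicases, DHX58 (LGP2, which modulates the other sensors) was called lower in basal KO cells at 6 h and 24 h. DHX58 read 3.98, 4.43 and 3.69 in KO libraries at 6 h, against 4.43, 5.00 and 5.02 in WT libraries, and 3.76, 4.01 and 3.66 in KO at 24 h, against 4.56, 4.80 and 4.61 in WT. The highest KO library at 6 h came level with the lowest WT library to 2 decimals, and at 24 h the groups were apart. The differences were -0.79 ± 0.23 and -0.84 ± 0.23 (limma adjusted p = 0.0284 and 0.0299). With an offset of 5 added to the linear values the 24 h call ended (limma adjusted p = 0.0611). Leaving out any of 4 libraries ended the 6 h call, and any of 5 the 24 h call. The RNA sensors RIGI and IFIH1 (MDA5) and the helicase DDX60 had differences between -1.51 and -0.49 and were not called. Of the 3 RNA binders, EIF2AK2, the kinase PKR that halts translation, was called lower at 6 h (2.54-fold, limma adjusted p = 0.0413). That call ended without the mean-variance trend (limma adjusted p = 0.0507) and when any of 5 libraries was left out. ADAR, which deaminates adenosines in double-stranded RNA, and ZC3HAV1, which binds viral RNA, were not called, with differences between -0.79 and 0.33.

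Of the 5 genes of ADP-ribosylation, PARP9, which acts in a complex with the ubiquitin ligase DTX3L, was called lower in basal KO cells at 6 h (3.42-fold, limma adjusted p = 0.0200). Its partner DTX3L was not, at -0.73, -0.48 and -0.35, and the spans of these neighbouring genes overlap on opposite strands. Since the sources used here do not state whether counting used strand, reads of PARP9 and DTX3L, and of the overlapping pair CMPK2 and RSAD2, may have been shared between them. PARP10, PARP12 and PARP14, which attach single ADP-ribose units, had differences between -1.05 and 0.14, none called. The nuclear body proteins SP100 and SP110 and the helicase and coactivator HELZ2 were not called either, between -0.84 and 0.05.

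The remaining members differed widely among themselves. IFI35, a leucine zipper protein, was called lower in basal KO cells at 12 h and 24 h (2.20-fold and 2.33-fold, limma adjusted p = 0.0264 and 0.0203), while its binding partner NMI lay between -0.02 and 0.21. IFI27, a mitochondrial protein, showed differences of -1.80, -2.15 and -2.75 that were not called. Its basal KO libraries read 1.89, 6.41 and 3.47 at 24 h, against 5.02, 7.82 and 7.18 in WT, the groups overlapping through KO library 2. PLSCR1, a phospholipid scramblase with antiviral activity, was called lower at every time, at 2.98-fold, 3.29-fold and 3.12-fold (limma adjusted p = 0.00258, 0.00170 and 0.00358), with no overlap. IFI6, which protects the endoplasmic reticulum from flaviviruses, LGALS3BP (a secreted glycoprotein), RTP4 (a receptor chaperone), LAMP3 (a lysosomal protein of dendritic cells) and LAP3 (an aminopeptidase) were not called, with differences between -1.37 and 0.30.

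**Figure D3:**
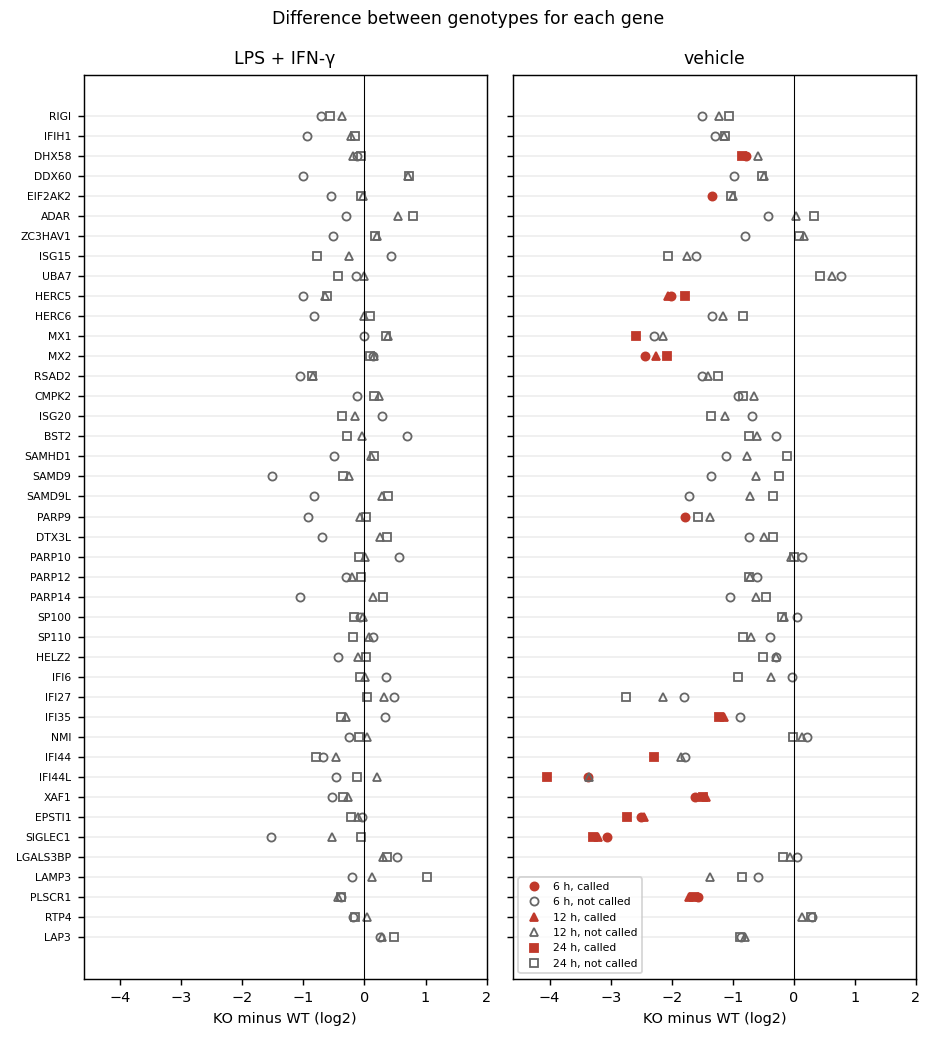
KO minus WT difference in log2 units (horizontal axis) for each of the 42 members (rows, ordered by role), with LPS and interferon-γ (left) and with vehicle (right). Circles, triangles and squares are 6, 12 and 24 h, and filled red symbols passed a limma adjusted p of 0.05. The called points are all in the vehicle panel, at 10, 7 and 11 members, and all lie below 0.

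Upstream of the members, of 21 genes of interferon production and signalling, none was called lower in basal KO cells (all rows 3.91%, 2.34% and 1.75%). At 6, 12 and 24 h 2, 1 and 1 were called higher, against 4.28%, 2.9% and 2.23% of all rows. STING1, the adaptor of cytosolic DNA sensing, averaged 8.78, 8.80 and 9.09 in basal KO cells and 7.18, 7.38 and 7.91 in basal WT cells, higher at every time (limma adjusted p = 0.000628, 0.00287 and 0.0163). IRF9, a transcription factor of the type I interferon response, averaged 6.90, 6.94 and 6.70 in basal KO cells and 8.01, 7.97 and 7.93 in basal WT cells and was not called (limma adjusted p = 0.0587, 0.111 and 0.0558), nor were STAT2 and IRF7. IFNB1, which encodes interferon-β, lay between 0.00 and 3.28 in basal KO libraries and between 0.00 and 2.56 in basal WT libraries, with no call. None of 7 brakes on the pathway, among them USP18 and SOCS1, was called at any time, beside the same shares of all rows.

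Of 16 genes of the OAS, IFIT, IFITM and GBP families, which are not members, 6, 5 and 5 were called lower in basal KO cells at 6, 12 and 24 h, against 3.91%, 2.34% and 1.75% of all rows, and 1, 0 and 0 higher, against 4.28%, 2.9% and 2.23%. The calls lower were all of OAS and IFIT genes. OASL, IFIT1, IFIT2, IFIT3 and IFIT5 were lower at all 3 times, with differences of -3.24, -3.23 and -3.13 for OASL and of -2.74, -2.07 and -2.03 for IFIT1. The gene called higher was GBP5 at 6 h (1.49 ± 0.46, limma adjusted p = 0.0390), which encodes a guanylate-binding protein induced by interferon-γ.

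Stimulation raised nearly all members in both genotypes. In KO cells 40 of the 42 were called higher at each time, against 16.2%, 15.5% and 17.3% of all rows at 6, 12 and 24 h. In WT cells 36, 40 and 40 were called higher, against 15.1%, 16.8% and 20.2% of all rows. None was called lower by limma in KO (all rows 22.5%, 19.5% and 21.6%) or in WT (all rows 20.9%, 21.7% and 26.1%), where an unadjusted p under 0.05 also gave 0 and library weights gave 1 in WT at 24 h. Median changes were 3.68, 3.77 and 4.05 in KO and 3.02, 2.83 and 3.05 in WT, while over all rows they were -0.20, -0.12 and -0.08 in KO and -0.17, -0.18 and -0.11 in WT. Without library 2 of stimulated KO cells at 6 h, the KO median at 6 h was 4.06.

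LAMP3 had the largest change in both genotypes and, with DHX58, the lowest mean listed value over all libraries. It read 11.35, 9.71 and 11.28 in stimulated KO libraries at 6 h, against 0.47, 0.69 and 1.25 in basal KO libraries. In WT it read 10.96, 11.29 and 10.69 with stimulation at 6 h, against 0.60, 1.25 and 2.32 with vehicle. Every stimulated library of both genotypes was far above every vehicle library. Changes were 9.97, 10.84 and 10.11 in KO and 9.59, 9.35 and 8.24 in WT at 6, 12 and 24 h, but basal means lay under 3.32, the log2 of 10, where the size of a change depends on the offset the authors added, which is not given.

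ISG20 and RSAD2 were also among the members with the largest changes. ISG20 read 9.96, 11.08 and 10.30 in stimulated KO libraries at 6 h, against 2.18, 3.87 and 2.65 in basal KO libraries, and 9.79, 9.99 and 10.68 in stimulated WT libraries, against 2.77, 3.03 and 4.94 in basal WT libraries. Its changes were 7.55, 7.39 and 7.42 in KO and 6.58, 6.43 and 6.43 in WT (SE 0.51), and they too depend on the offset, since its basal means reached 3.32 only in WT at 6 h and 12 h. RSAD2 read 12.12, 11.93 and 12.06 in stimulated KO libraries at 24 h, against 4.14, 5.48 and 4.19 in basal KO libraries, a change of 7.43 ± 0.71. In WT it read 13.98, 12.93 and 11.78 with stimulation at 24 h, against 5.23, 6.83 and 5.48 with vehicle, a change of 7.05 ± 0.71. Groups were far apart in each of these comparisons.

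IFI44L, with the lowest basal level in KO relative to WT, changed by 6.97, 7.57 and 8.17 in KO at 6, 12 and 24 h and by 4.06, 4.01 and 4.24 in WT (SE 1.06). Its stimulated libraries read 11.56, 11.77 and 11.84 in KO at 24 h and 12.04, 11.67 and 11.81 in WT, nearly the same range. ISG15 changed by 6.56, 5.70 and 5.82 in KO and by 4.53, 4.20 and 4.53 in WT, and MX1 by 6.11, 5.84 and 6.12 in KO and by 3.83, 3.31 and 3.19 in WT. SIGLEC1 rose at every time in KO, by 3.19, 4.55 and 4.84, and in WT was called at 12 h only, with changes of 1.66, 1.87 and 1.61. That call ended without library 1 or 2 of stimulated WT cells or library 1 or 3 of basal WT cells (limma adjusted p between 0.0740 and 0.169). The 4 RNA-sensing helicases, the 5 genes of ADP-ribosylation and the 3 nuclear body and coactivator genes were called higher in both genotypes at every time.

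A few members did not pass the test in 1 or both genotypes. SAMHD1 was not called in either genotype, with changes of 0.45, 0.32 and -0.56 in KO and -0.17, -0.55 and -0.83 in WT, and its basal libraries already read between 9.07 and 10.88 in KO and between 10.10 and 11.48 in WT. UBA7 was called higher in WT at every time (0.91, 1.12 and 0.93; limma adjusted p = 0.00528, 0.00074 and 0.00335) and not in KO (-0.01, 0.49 and 0.06). In stimulated cells UBA7 averaged 8.78, 9.35 and 8.73 in KO and 8.92, 9.36 and 9.17 in WT. The difference between the genotypes' responses was not called for UBA7 (-0.92, -0.64 and -0.86; limma adjusted p = 0.394, 0.803 and 0.305). In WT at 6 h ADAR, BST2, IFI6, SIGLEC1 and LGALS3BP were also not called, with changes between 0.61 and 1.66, and ADAR at 12 h and SIGLEC1 at 24 h were not called either. For these members, too, no difference between the genotypes' responses was called.

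**Figure D4:**
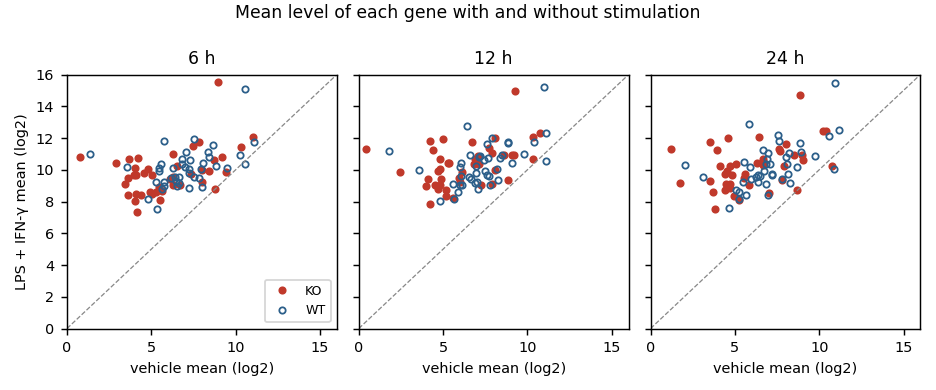
Mean log2 value of each of the 42 members with LPS and interferon-γ (vertical axis) against its mean with vehicle (horizontal axis) at 6, 12 and 24 h, KO as filled red and WT as open blue circles, with a dashed line of equality. Vehicle medians are 5.49, 5.97 and 5.57 in KO and 6.90, 7.15 and 6.93 in WT, and stimulated medians are 9.68, 10.37 and 10.23 in KO and 10.10, 10.22 and 10.11 in WT.

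Stimulated levels did not pass the test for a difference between genotypes in any member. The counts called were 0 lower and 0 higher at 6 h (all rows 3.86% and 4.86%), at 12 h (1.68% and 1.78%) and at 24 h (2.46% and 3.41%), by limma. An unadjusted p under 0.05 gave 2, 0 and 1 members, namely HERC5 and SIGLEC1 lower at 6 h and LAMP3 higher at 24 h, and library weights gave 2 and 3 members lower at 6 h and 24 h. Median differences were -0.30, -0.01 and -0.07, against -0.03, 0.03 and 0.06 over all rows. Without KO library 2 the median at 6 h was -0.03. Without WT library 3 that at 24 h was -0.22.

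Closeness of the stimulated levels was bounded for only some members. The 95% interval of the KO minus WT difference lay within 1 log2 unit of 0 for 9, 16 and 12 of the 42 at 6, 12 and 24 h, and its half-width lay between 0.33 and 2.17. EPSTI1 read 9.37, 9.40 and 9.61 in stimulated KO libraries at 6 h, against 9.54, 9.51 and 9.47 in WT libraries, so the groups overlapped. HERC5 had a difference of -1.01 at 6 h (95% interval -1.90 to -0.12, limma adjusted p = 0.155). SIGLEC1 read 7.15, 7.54 and 7.37 in stimulated KO libraries at 6 h, all below 9.10, 9.11 and 8.42 in WT libraries, a difference of -1.53 (95% interval -3.00 to -0.05, limma adjusted p = 0.199). By 24 h its difference was -0.06 (95% interval -1.53 to 1.42).

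Among the upstream genes in stimulated cells, TYK2, a kinase of the type I interferon receptor, was higher in KO at all 3 times (0.73, 0.80 and 0.91; limma adjusted p = 0.0152, 0.0159 and 0.00524). IRF8, a myeloid transcription factor, was higher in KO at 6 h and 24 h (1.37 and 1.20; limma adjusted p = 0.0161 and 0.0478). IFNB1 read 5.14, 8.07 and 6.50 in stimulated KO libraries at 6 h, against 7.48, 6.83 and 7.04 in WT libraries, and 3.28, 4.01 and 0.01 in KO at 24 h, against 5.64, 4.75 and 4.77 in WT. The groups overlapped at 6 h and were apart at 24 h, where the difference of -2.62 ± 1.04 was not called (limma adjusted p = 0.135). None of the 16 genes of the OAS, IFIT, IFITM and GBP families was called in stimulated cells. Of all rows there, 3.86%, 1.68% and 2.46% were lower in KO and 4.86%, 1.78% and 3.41% higher.

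Whether the response itself differed between genotypes was tested as the interaction of genotype and treatment. It was positive, meaning a larger response in KO, for 34, 39 and 37 of the 42 members at 6, 12 and 24 h, with medians of 0.63, 0.88 and 0.84 against 0.00, 0.06 and 0.08 over all rows. No member was called by limma, neither positive (all rows 0.283%, 0.0612% and 0.174%) nor negative (all rows 0.17%, 0.0989% and 0.259%), while an unadjusted p under 0.05 gave 8, 9 and 12 members and library weights 8, 2 and 5 positive and 1, 1 and 1 negative. Without KO vehicle library 2 of 12 h or of 24 h, 2 members were called positive at that time. MX2 came nearest, at 2.57 ± 0.71 (95% interval 1.12 to 4.01, limma adjusted p = 0.116) at 6 h. EPSTI1 had 2.52 (95% interval 0.95 to 4.08, limma adjusted p = 0.135) and SIGLEC1 3.23 (95% interval 1.14 to 5.32, limma adjusted p = 0.154) at 24 h. The vehicle libraries enter both the basal difference and the interaction, so these are not separate observations.

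Between 6 h and 24 h few members were called, although changes of at least 1 log2 unit were common in stimulated KO cells. There 11 members were higher and 1 was lower at 24 h by that much (range -1.27 to 2.33), and in stimulated WT cells 3 were higher and 1 was lower (range -1.16 to 1.68). The KO changes include library 2 at 6 h, with a member median of 9.04, against 10.05 and 10.10 in the other libraries. Among the higher KO members, library 2 was the lowest at 6 h for IFIH1, DDX60, ADAR, RSAD2, SAMD9, DTX3L, PARP14, IFI44L and LGALS3BP. DDX60 read 10.29, 6.59 and 10.29 in KO at 6 h, against 10.60, 10.41 and 10.27 at 24 h. Library 2 was the highest at 6 h for SIGLEC1, IFI27 and ISG20, the last being the member lower at 24 h. With vehicle no member was called in either genotype by limma (all rows higher 0.226% in KO and 0.00942% in WT, lower 0.608% in KO and 0.0801% in WT), and an unadjusted p under 0.05 gave 3 in KO and 0 in WT. In stimulated KO cells 2 members were called higher at 24 h than at 6 h, against 14.5% of all rows, and 0 lower, against 13%. These were SIGLEC1, at 9.61, 9.98 and 9.45 at 24 h, against 7.15, 7.54 and 7.37 at 6 h (2.33 ± 0.72, limma adjusted p = 0.0171), and LGALS3BP (1.04 ± 0.33, limma adjusted p = 0.0175). In stimulated WT cells 1 member was called higher, against 10.8% of all rows, and 1 lower, against 12%. LGALS3BP read 12.64, 11.76 and 11.94 at 24 h, against 10.75, 10.88 and 11.06 at 6 h in WT (1.22 ± 0.33, limma adjusted p = 0.00723), and ZC3HAV1 fell by 1.16 (SE 0.38, limma adjusted p = 0.0270). With the replicate number as a block, which pairs these WT libraries, the counts were 2 higher and 2 lower. Leaving out 1 library gave between 1 and 5 higher in KO and between 0 and 2 in each direction in WT. The KO call of LGALS3BP ended without library 1 or 3 at 24 h or library 2 at 6 h (limma adjusted p between 0.0559 and 0.0790), and that of SIGLEC1 without library 2 at 24 h (limma adjusted p = 0.0597). In WT the call of LGALS3BP ended without library 1 at 24 h (limma adjusted p = 0.0562), and that of ZC3HAV1 without library 1 or 2 at 6 h or library 3 at 24 h (limma adjusted p between 0.0657 and 0.135).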

How the data were processed

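The authors deposited 1 table of log2 values, with a row for each Entrez Gene number and a column for each of the 36 libraries. The submitters' processing notes name GSNAP, cutadapt 1.9.1 and the build GRCh37.p5. How reads were counted and normalized, whether strand was used, and which offset preceded the log2 step are not given in the sources used here. Library medians lay between 5.47 and 5.48, and at 88.0% of ranks the sorted values of all libraries lay within 0.1 of each other. The table holds no counts, so sequencing depth is unknown.

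Symbols matched 20609 rows. Rows at or above 3.32, which is log2(10), in at least 3 libraries were kept (21232 rows, with 367 removed). limma 3.58.1 (R 4.3.3) then fitted 12 group means over the 36 libraries with a mean-variance trend and 24 residual degrees of freedom. The procedure was checked on simulated data whose libraries varied independently, so that check did not cover effects shared by the genes of a library. P-values of each of the 19 comparisons were adjusted by Benjamini-Hochberg over all kept rows, and a call needed an adjusted p below 0.05. A linear fold is printed only for group means of at least 3.32 on both sides. The members, the other lists and the rule for named genes were chosen with earlier results of these data known. By that rule any member may be named, and library values are printed for the members with the largest mean change among those called at 2 or more times, for those that changed most over time, and for the 2 with the lowest mean. The values of 1 gene of the upstream list are not reported here. Library values of HERC5, ISG15, MX2 and IFI27 were added after they were seen. Alternatives were the filter, an offset of 5, normalization, library weights, the trend, a minimum change, the libraries fitted, each library left out, and a replicate block. Replicate numbers paired libraries, with all 3 correlations of same-numbered deviations over 0.1, in 12 of the 16 comparisons of 2 groups. The other 4 were KO against WT at 6 h with vehicle and with stimulation, stimulation in KO at 24 h, and 24 h against 6 h in stimulated KO cells. Promoter windows are RefSeq's on GRCh38.p14, another build than the table's. Tables and figures used Python 3.11.15, pandas 2.3.3, numpy 2.4.6 and matplotlib 3.10.9.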

Additional observations from a re-analysis of the deposited data

Results flagged for a closer look

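ISG15 moved in opposite directions between 6 h and 24 h in the stimulated cells of the 2 genotypes, with no overlap of libraries in either. It read 14.51, 14.82 and 14.70 in KO at 24 h, against 15.04, 16.47 and 15.08 in KO at 6 h, a change of -0.85 (95% interval -2.23 to 0.53, limma adjusted p = 0.367). In WT it read 15.49, 15.37 and 15.49 at 24 h, against 14.89, 15.15 and 15.25 at 6 h, a change of 0.36 (95% interval -1.02 to 1.74, limma adjusted p = 0.750). Neither change was called, and the difference between them was not tested. Library 2 of the 6 h KO group, at 16.47, is the library that stood apart over all rows.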

How the results depend on the processing

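Quantile normalization, median centring, no filter, a stricter filter, no trend and a minimum change of 1 kept each count of called members within 1.5 times its reported value. The first 3 of these had little to change. The deposited libraries already shared nearly the same distribution, with medians between 5.47 and 5.48, and the filter had removed only 367 rows. Library weights, whose estimation stopped before convergence, gave 26, 17 and 19 members lower and 3, 1 and 0 higher in basal KO cells at 6, 12 and 24 h, 2 and 3 lower in stimulated KO cells at 6 h and 24 h, 8, 2 and 5 positive and 1, 1 and 1 negative interactions, and 1 member lower with stimulation in WT at 24 h. For 24 h against 6 h they gave 8 higher in stimulated WT, 2 lower in stimulated KO, and 2 higher and 1 lower in vehicle KO. Fits on the compared libraries alone gave 2, 0 and 0 members lower in basal KO cells, 0 lower over time in stimulated WT and 1 higher in stimulated KO. An offset of 5 gave 2 lower over time in stimulated WT and 1 in stimulated KO. Without the 12 libraries numbered 2, basal KO counts were 17, 14 and 17 lower and 1, 1 and 0 higher, stimulated KO cells had 1 lower at 24 h, interactions were 1, 2 and 6 positive and 1 negative at 24 h, and stimulated WT had 6 higher and 0 lower over time. The replicate block gave 12 lower in basal KO cells at 12 h, and 2 higher and 2 lower over time in stimulated WT. Where numbers did not pair or the interaction was tested, it gave 1 higher in basal KO at 6 h, 1 and 2 positive interactions at 6 h and 24 h, and 1 lower over time in stimulated KO. It moved no other count by over 1.5 times. Leaving out 1 library gave 5 to 14, 1 to 14 and 1 to 14 lower in basal KO cells, 0 to 1 higher there at 12 h, 0 to 1 lower with stimulation in WT at 24 h, 0 to 2 positive interactions at 12 h and 24 h, 0 to 2 in each direction over time in stimulated WT, and 1 to 5 higher and 0 to 1 lower in stimulated KO. Of 268 calls of single members, 0 were lost under the block and 36 on the compared libraries alone. The stricter filter, no trend and the minimum change each lost 4, and the offset of 5 lost 2. Leaving out 1 library ended 96 of 1608 such calls, and no alternative reversed a direction. Most of the 1608 were responses to stimulation, so this share does not describe the basal calls. Of those 28, only 7 stood whichever library was left out. The causes were not tested. Read depth behind the values is unknown.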
